A study of Caenorhabditis elegans with 83 samples.

Results

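The 39 genes described here are nuclear genes of the oxidative phosphorylation machinery of *Caenorhabditis elegans*, of 18607 genes in either of the RNA comparison tables. They were listed by sequence name, with earlier results of these data known. Of them, 13 encode subunits of complex I, 4 of complex II, 7 of complex III, 6 of complex IV and 9 of ATP synthase. All 39 were present in both RNA tables and had an adjusted p in each. They lay on every chromosome, with 12 on chromosome I, 3 on II, 11 on III, 2 on IV, 4 on V and 7 on X.

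Oxidative phosphorylation takes place in the inner mitochondrial membrane. Complexes I and II pass electrons from NADH and succinate to ubiquinone, complex III passes them on to cytochrome c, and complex IV passes them to oxygen. Complexes I, III and IV pump protons, and ATP synthase uses the resulting gradient to make ATP. Most subunits are nuclear genes whose products are imported, and in worms several of the mutants (*gas-1*, *mev-1*, *isp-1*, *nuo-6*) are known for altered lifespan, stress resistance or anaesthetic response. Cohesin is a ring complex that organises chromosomes into loops. SMC-3 is one of its core subunits, PQN-85 is the worm counterpart of the loader NIPBL, and WAPL-1 releases cohesin from DNA.

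The series holds 83 samples, and those used here were whole L2/L3 worms grown for 24 h at 22 °C. Their strains belong to an auxin-inducible degron system, in which a tagged protein is degraded after auxin is added. Strain JK05 was used to deplete SMC-3, strain JK06 to deplete WAPL-1, and strain CA1200 with auxin was the control of both. A further strain, HW04, was sampled with auxin and without it. The sources used here do not say which protein HW04 degrades, nor do they give the alleles of the strains or the promoter of the degradation factor. Chromatin was taken for ChIP-seq after 1 h of auxin. Polyadenylated RNA was sequenced in 2 libraries per strain, after 4 h of auxin by the sample titles, although the treatment protocol given for the same samples states 1 h. The control worms received auxin too, and no RNA of JK05 or JK06 worms without auxin was analysed here, so depletion and other strain differences cannot be told apart. Both RNA comparisons use the same CA1200 libraries, and nothing in the labels says that the 2 libraries of a strain were separate cultures, so p-values measure only the spread between these libraries.

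For RNA the deposit holds 1 table per depletion strain, with a log2 fold change over control, its standard error (SE) and a p-value from DESeq2 for each gene, but no value per library. Sequencing depth is therefore unknown and the SE is the only error given. For the depleted factors themselves, the authors' deposited table gives *smc-3* RNA a log2 fold change of -0.23 ± 0.26 (SE) where SMC-3 was depleted. It gives *wapl-1* RNA one of 0.22 ± 0.41 where WAPL-1 was depleted, and neither passed the test. Degrons act on protein, which was not measured, so these values check neither the labels nor the depletion. Of the markers of 6 tissues (body muscle, intestine, epidermis, pharynx, neurons and germline), all but 1 intestine marker were in the tables. In whole animals, fewer cells of a type and less RNA per cell cannot be told apart.

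The first question is whether RNA of the respiratory genes differed after SMC-3 depletion. All 39 genes had a log2 fold change below 0 in SMC-3 depletion over control, with a median of -0.34 and a range of -0.66 to -0.11. None passed the test: 0 of 39 had an adjusted p under 0.05 (DESeq2, Benjamini-Hochberg) in either direction, where 0.464% of the 15316 genes tested were called lower and 0.222% higher. At an unadjusted p under 0.05, 1 of 39 was lower and 0 higher, against 3.66% lower and 2.17% higher over all genes in the table. Among highly expressed genes, meaning here those whose mean normalized count in a table reached 1000, 7.99% were lower at that threshold. The SE of single genes, 0.275 to 0.376, was about as large as the median itself.

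This shared sign stands beside a background that leaned the same way to a smaller degree. Over all 18128 genes of the table, 50.7% were below 0 and the median was -0.01. Among the 3230 highly expressed genes, a class to which 35 of the 39 members belong, 55.9% were below 0 and the median was -0.05. That class is not matched to the members in expression. The median of its mean normalized counts was 2071, against 4784 for the 35 members. The part of expression level in the members' values was not tested. The 39 genes are not independent of each other, being measured in the same 4 libraries and set against the same control, so their shared sign is given as a description and not as a test.

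By complex, the medians in SMC-3 depletion were as follows. Complex I had a median log2 fold change of -0.31, complex II of -0.31, complex III of -0.33, ATP synthase of -0.42 and complex IV of -0.49. No test between complexes was made. The 7 members on X had a median of -0.40 and the 32 on autosomes one of -0.34.

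Complex IV, cytochrome c oxidase, held the member with the smallest p. In the authors' deposited table *cox-7C* (F26E4.6; the worm gene of the mammalian COX7C type) had a log2 fold change of -0.66 ± 0.32, with p = 0.0358 and an adjusted p = 0.614 by DESeq2. The gene *cox-6B* (Y71H2AM.5) had -0.52 ± 0.29, *cox-4* (W09C5.8) had -0.50 ± 0.28 and *cox-5B* (F26E4.9) had -0.42 ± 0.28 in the authors' deposited table. The largest p of the complex belonged to *cox-6A* (F54D8.2), at -0.23 ± 0.36 in the authors' deposited table. The 95% intervals of *cox-6B* and *cox-4* just included 0, with upper bounds of 0.04 for both.

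Among the ATP synthase genes, *atp-1* (H28O16.1) and *atp-2* (C34E10.6), which encode the alpha subunit and the catalytic beta subunit of the F1 head, had the highest mean normalized counts of the 39. Those means were 42082 for *atp-1* and 52939 for *atp-2* over the libraries of the SMC-3 comparison in the authors' deposited table. Their log2 fold changes there were -0.57 ± 0.32 for *atp-1* and -0.53 ± 0.33 for *atp-2*. The authors' deposited table gives -0.54 ± 0.32 for *atp-4* (T05H4.12), the coupling factor of the stalk. The interval given for *atp-4* overlaps that of *alh-4* on the same strand, so its reads and its start may not be its own alone. Subunit b of the stalk has a pair of genes in worms, *asb-2* (F02E8.1) in the soma and *asb-1* (F35G12.10) in the germline. In the authors' deposited table *asb-2* had -0.43 ± 0.31 and *asb-1*, which had the largest p of the ATP synthase genes, had -0.17 ± 0.29.

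Complex I, the NADH dehydrogenase, showed its smallest p at *gas-1* (K09A9.5), a core subunit near the quinone site, with -0.43 ± 0.30 in the authors' deposited table. Its paralog *nduf-2.2* (T26A5.3) had -0.51 ± 0.37 at a mean normalized count of 343, the lowest of the 39 in the authors' deposited table. The iron-sulphur subunit gene *nuo-5* (Y45G12B.1) had -0.41 ± 0.30 and the accessory subunit gene *nduf-6* (F22D6.4) had -0.36 ± 0.29 in the authors' deposited table. At the other end, *nuo-4* (K04G7.4) had -0.11 ± 0.33, the value nearest to 0 of all 39 in the authors' deposited table.

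In complex II, succinate dehydrogenase, the membrane anchor genes came first. The authors' deposited table gives -0.52 ± 0.28 for *sdhd-1* (F33A8.5) and -0.34 ± 0.28 for *mev-1* (T07C4.7). The flavoprotein gene *sdha-1* (C03G5.1) had -0.27 ± 0.32 and the iron-sulphur gene *sdhb-1* (F42A8.2) had -0.24 ± 0.32 in the authors' deposited table. The spread over these 4 genes was about the size of 1 SE.

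Complex III, the cytochrome bc1 complex, has several core protein paralogs. In the authors' deposited table *ucr-2.3* (T24C4.1) had a log2 fold change of -0.58 ± 0.38, *ucr-2.2* (T10B10.2) of -0.43 ± 0.28 and *ucr-2.1* (VW06B3R.1) of -0.33 ± 0.32. The core protein gene *ucr-1* (F56D2.1) had -0.37 ± 0.36, and R07E4.3, which had the largest p, had -0.13 ± 0.33 in the authors' deposited table. The Rieske protein gene *isp-1* and the cytochrome c1 gene *cyc-1* lay between these, within the range above.

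**Figure D1:**
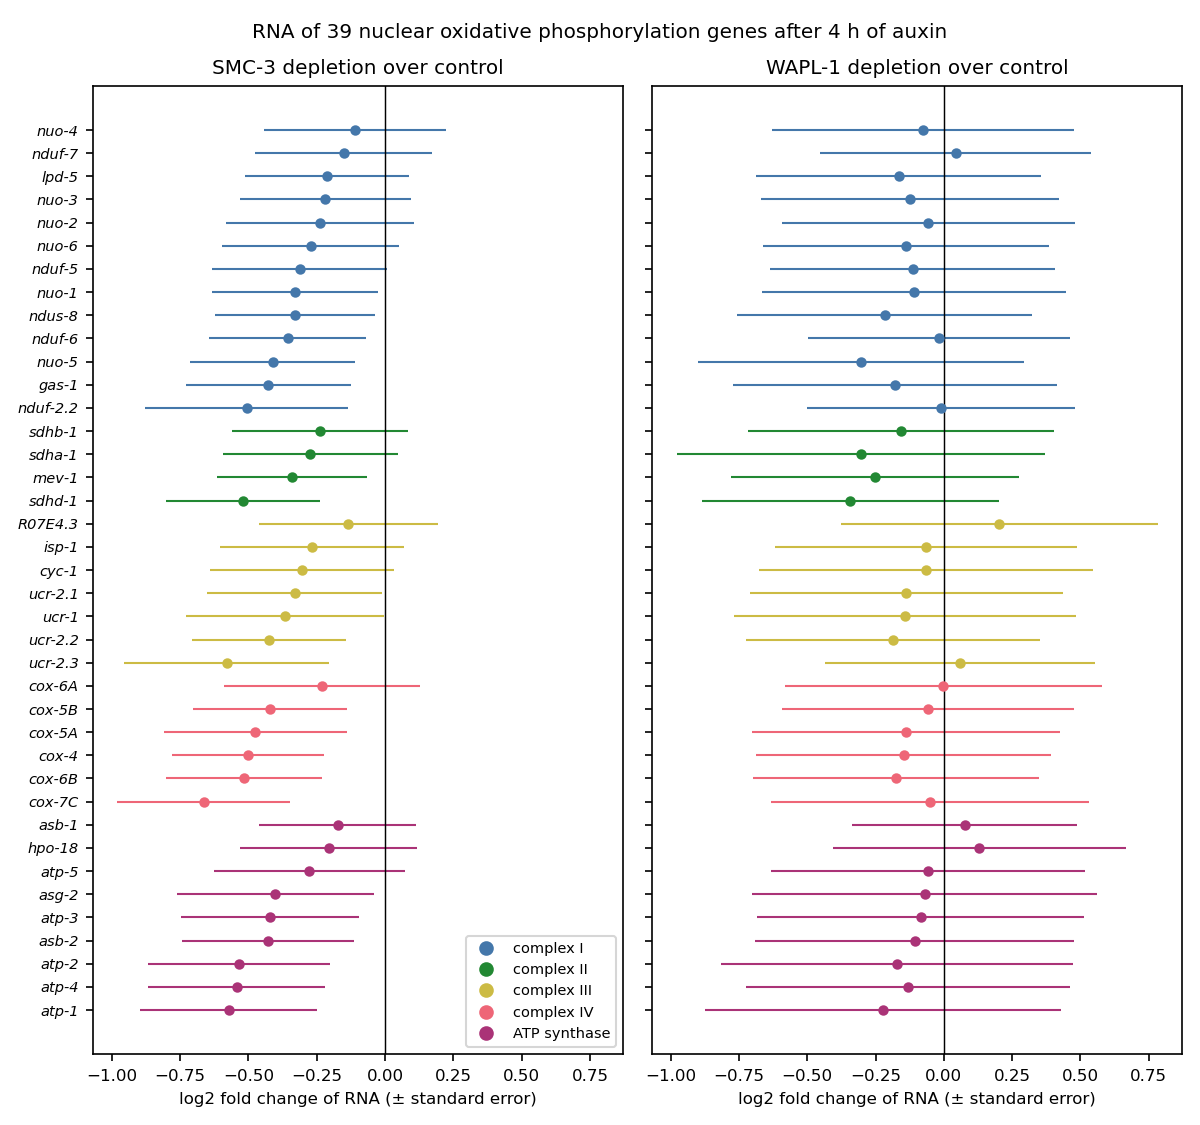
Log2 fold change of RNA (x axis, with bars of ± 1 standard error as deposited) for each of the 39 genes (y axis, grouped and coloured by complex), in SMC-3 depletion over control (left) and WAPL-1 depletion over control (right). All points lie below 0 on the left, from -0.66 to -0.11, and 34 of 39 lie below 0 on the right, where the bars are wider.

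After WAPL-1 depletion the same genes had values nearer to 0 with larger errors. The median log2 fold change of the 39 over control was -0.11, the range -0.34 to 0.20, and the SE of single genes 0.413 to 0.673. In the WAPL-1 comparison 34 of the 39 genes were below 0 and 5 above. None was called in either direction by DESeq2, and 0.0% of the 18308 genes of that table were called lower and 0.0% higher. At an unadjusted p under 0.05, 0 of 39 were lower or higher, against 0.377% lower and 0.0218% higher over all genes and 0.467% lower among highly expressed genes. Over all genes the median was 0.05 and 44.2% were below 0. Among the 3642 highly expressed genes of this table the median was 0.01 and 47.5% were below 0.

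By complex, the medians in WAPL-1 depletion were -0.28 for complex II, -0.11 for complex I, -0.10 for complex IV, -0.08 for ATP synthase and -0.07 for complex III. In the authors' deposited table the lowest of the 39 was *sdhd-1*, at -0.34 ± 0.54, and the highest R07E4.3, at 0.20 ± 0.58. The other genes above 0 were *hpo-18*, *asb-1*, *ucr-2.3* and *nduf-7*. For *cox-7C* the authors' deposited table gives -0.05 ± 0.58 in WAPL-1 depletion, beside the -0.66 ± 0.32 of the SMC-3 comparison. The paralog *asb-2* had -0.11 ± 0.59 and *asb-1* 0.08 ± 0.41, while *gas-1* had -0.18 ± 0.59 and *nduf-2.2* -0.01 ± 0.49, in the authors' deposited table. The difference between the depletions was not tested, since no value per library was given and both use the same control libraries.

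Other mitochondrial and metabolic gene lists showed how far this pattern was shared. In SMC-3 depletion, 22 of 22 other nuclear respiratory chain subunits were below 0, with a median log2 fold change of -0.43, and 3 had an unadjusted p under 0.05. The 18 genes of the tricarboxylic acid cycle and pyruvate dehydrogenase had a median of -0.33, with 16 below 0. The 69 genes of the mitochondrial ribosome had a median of -0.29, with 64 below 0, and the 13 genes of protein import and carriers one of -0.34, with 11 below 0. Most mitochondrial lists thus had medians near that of the 39 genes, while lists of the cytosol lay to either side. The 18 glycolysis genes had a median of -0.18, with 17 below 0. The 75 cytosolic ribosomal protein genes had the lowest median of these lists, -0.61, with 75 below 0 and 52 at an unadjusted p under 0.05. None of these genes passed the test in either direction.

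Among single genes of those lists, *hsp-60*, a mitochondrial chaperone and target of the mitochondrial unfolded protein response, came closest to the threshold. In the authors' deposited table its log2 fold change in SMC-3 depletion was -1.0 ± 0.28, with an adjusted p = 0.0523 by DESeq2. The transcription factor gene *atfs-1*, which drives that response, had -0.67 ± 0.29 (adjusted p = 0.487, DESeq2) in the authors' deposited table. The 7 genes of the response had a median of -0.36, with 4 below 0 and 3 above. The cytochrome c gene *cyc-2.1* had -0.66 ± 0.32, and Y82E9BR.3, a further ATP synthase gene, -0.85 ± 0.32, in the authors' deposited table. Of the ADP/ATP carrier genes, *ant-1.1* had -0.57 ± 0.35 and *ant-1.2*, with a mean normalized count of 26.9, had 2.05 ± 0.81 in the authors' deposited table.

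In WAPL-1 depletion the medians of these lists ranged from -0.15 to 0.03. The other respiratory chain subunits had -0.10, the tricarboxylic acid cycle genes -0.15, glycolysis -0.15, cytosolic ribosomal proteins -0.09, and the mitochondrial ribosome 0.03. None was called there. The 12 respiratory chain genes of the mitochondrial genome were looked up by name but found in neither RNA comparison, so they were not analysed here.

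Markers of some tissues had medians as low as those of the 39 genes. In SMC-3 depletion the 10 body muscle markers were all below 0, with a median log2 fold change of -0.44. The medians were -0.37 for 9 intestine markers and -0.56 for 10 germline markers, and 0.11 for 10 epidermis, 0.04 for 6 pharynx and 0.06 for 9 neuron markers. In WAPL-1 depletion the medians were -0.12 for body muscle, -0.01 for intestine, -0.01 for germline, -0.41 for epidermis, 0.35 for pharynx and -0.03 for neurons. No marker was called in either comparison, no level per library was given for any list, and the part of tissue composition in the values of the 39 genes was not tested.

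**Figure D2:**
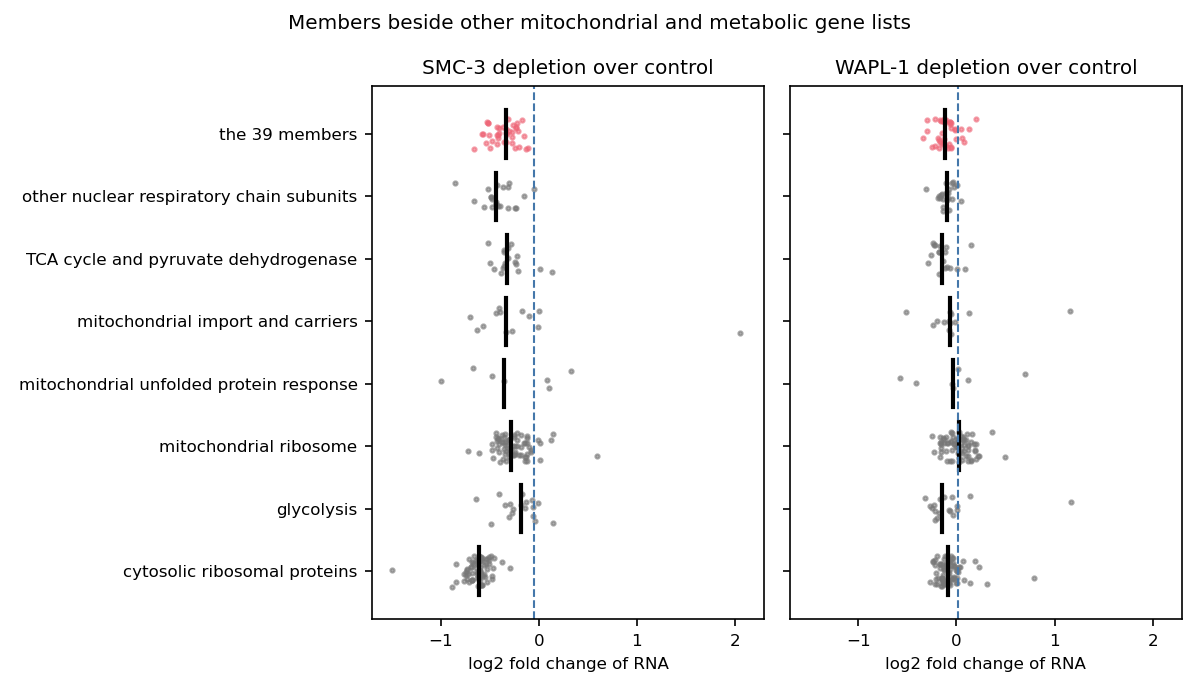
Log2 fold change of RNA (x axis) for the 39 members and 7 other gene lists (y axis), 1 point per gene with the list's median as a black bar, and the median of highly expressed genes (mean normalized count from 1000) as a dashed line. In SMC-3 depletion (left) the medians lie between -0.61 and -0.18, left of the dashed line at -0.05; in WAPL-1 depletion (right) they lie between -0.15 and 0.03.

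The second question is where cohesin and its loader lay relative to these genes. A gene was counted when a peak summit fell within 500 bp on either side of its start, the 5′ end given in the RNA table. Each antibody had 1 combined peak set per condition, made by the authors over replicate libraries, so the counts below have no replicate error and were not tested between conditions. The SMC-3 set of WAPL-1 depletion was made over more libraries than the SMC-3 sets of SMC-3 depletion and the control. The part of library number in the counts was not tested. The score and rank of a peak are the authors' and are used only within a list.

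An SMC-3 summit lay at the start of 1 of the 39 genes in SMC-3 depletion, 28 in WAPL-1 depletion and 26 in the control. Over all 18607 genes the shares were 0.548% in SMC-3 depletion, 17.1% in WAPL-1 depletion and 14.3% in the control. Highly expressed genes had more summits: among the 3230 highly expressed genes of the SMC-3 comparison, 0.836%, 33.3% and 31.3% had one in the same order. The members' shares were 2.56%, 71.8% and 66.7%. Highly expressed genes are not matched to the members in expression or in the arrangement of neighbouring genes, which is given below. The parts of expression level and of arrangement in these shares were not tested. The SMC-3 depletion set holds 361 peaks in all, against 6107 in WAPL-1 depletion and 6290 in the control, so the whole set is small and not only its part at these genes.

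A PQN-85 summit lay at the start of 20 of the 39 genes in SMC-3 depletion, 24 in WAPL-1 depletion and 19 in the control. With a window of 250 bp the counts were 14, 15 and 13 in that order. The shares over all genes within 500 bp were 11.4%, 14.1% and 12% in that order, and over highly expressed genes 27.2%, 32.3% and 27%. The loader was called at members' starts in SMC-3 depletion about as often as in the control. Of the 19 members with PQN-85 in the control, 16 (84.2%) also had it in SMC-3 depletion, beside 76.9% of the 2224 genes with it overall. Those 16 were *nuo-1*, *nduf-6*, *nduf-7*, *ndus-8*, *sdha-1*, *mev-1*, *cyc-1*, *isp-1*, *ucr-1*, *cox-4*, *cox-5A*, *cox-5B*, *cox-6B*, *atp-1*, *atp-2* and *atp-3*. They had PQN-85 in WAPL-1 depletion too. The PQN-85 set of WAPL-1 depletion held 18 (94.7%) of the 19 members with PQN-85 in the control, beside 83.2% of the 2224 genes overall. The share of all genes with PQN-85 in every condition is not given here, so these names describe the members only.

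**Figure D3:**
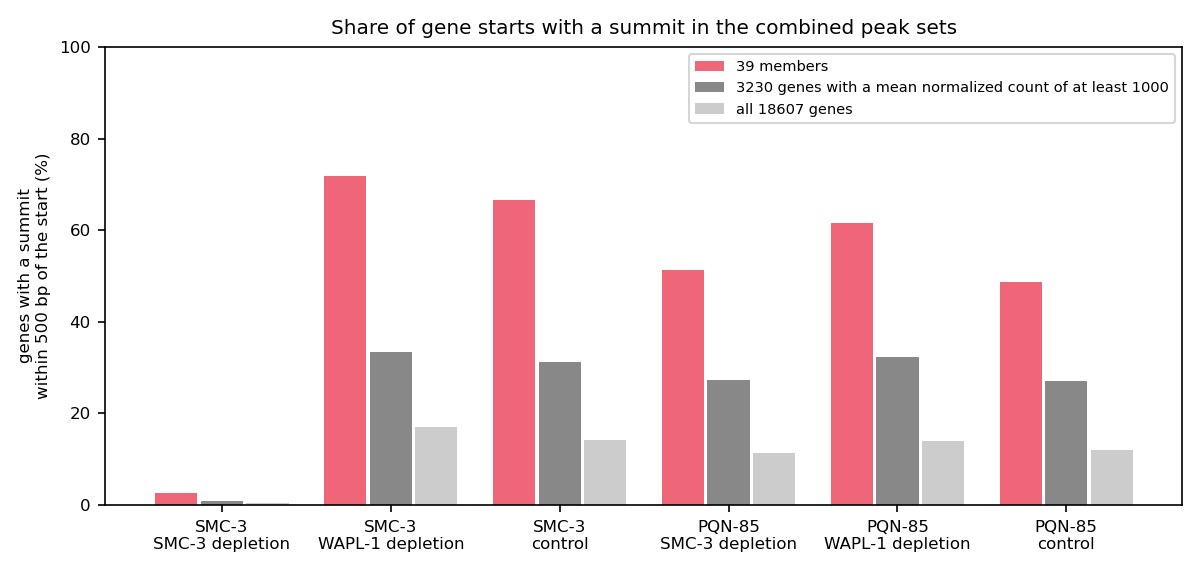
Share of genes (y axis, percent) with a summit within 500 bp of the start in each of the 6 combined peak sets (x axis), for the 39 members, highly expressed genes and all genes. The members' bars stand above both backgrounds in every set. For SMC-3 they reach 71.8% in WAPL-1 depletion and 66.7% in the control. In SMC-3 depletion the members' SMC-3 bar, at 2.56%, is 1 gene.

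Outside SMC-3 depletion, SMC-3 and PQN-85 coincided at most bound starts. In SMC-3 depletion, 19 members had PQN-85 with no SMC-3 summit, and *cox-5A* alone had both, which is 1 of 20 (5%) beside 4.33% of all genes with PQN-85. In WAPL-1 depletion, all 24 members with PQN-85 had SMC-3 as well, beside 2040 of 2615 genes overall (78.0%). There 24 of the 28 with SMC-3 (85.7%) had PQN-85, beside 64.2% of all genes with SMC-3. In the control, all 19 members with PQN-85 also had SMC-3, beside 78.0% of all genes with PQN-85, and 19 of the 26 members with SMC-3 (73.1%) also had PQN-85, beside 65.2% of all genes with SMC-3.

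By complex, SMC-3 summits in WAPL-1 depletion were found at 7 of 13 complex I genes, 3 of 4 of complex II, 6 of 7 of complex III, 5 of 6 of complex IV and 7 of 9 of ATP synthase. In the control the counts were 6, 3, 6, 4 and 7 in that order. PQN-85 counts, in the same order, were 4, 2, 5, 4 and 5 in SMC-3 depletion, 6, 2, 6, 4 and 6 in WAPL-1 depletion and 4, 2, 4, 4 and 5 in the control. No test between complexes was made.

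The gene *cox-5A*, a subunit gene of complex IV on chromosome III, was the one member with an SMC-3 summit after SMC-3 depletion. There its peak spanned 12904881 to 12905301 in build ce10, with the summit at -283 bp from the gene start (negative distances are upstream), and ranked 134 of 361 by score. In the control set the peak spanned 12904841 to 12905355, with the summit at -293 bp, and ranked 195 of 6290. This stretch lies outside the gene, upstream of its first base, and the nearest gene start to it is that of *cox-5A*. With a window of 250 bp the SMC-3 depletion count was 0, and with 1000 bp it was 2, the other gene being *cox-6A* with a summit at -773 bp.

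The highest-scoring members were named within each set. In the WAPL-1 depletion SMC-3 set the 5 top members were *gas-1* (rank 13 of 6107), *ucr-2.2* (45), *atp-3* (153), *ucr-2.1* (346) and *nuo-6* (352). In the control SMC-3 set they were *nduf-6* (rank 94 of 6290), *cox-5B* (172), *cox-5A* (195), *atp-2* (565) and *ucr-2.2* (738). In all 3 PQN-85 sets the top 5 were *cox-5B*, *cox-5A*, *atp-1*, *cox-6B* and *sdha-1*. For *cox-5B*, which led each time, the rank was 189 of 5018 in SMC-3 depletion, 157 of 6713 in WAPL-1 depletion and 105 of 5385 in the control. Ranks of sets of different length are not compared. By score, 7 of 28 bound members stood in the upper 10% of the combined SMC-3 peaks in WAPL-1 depletion, and 4 of 26 in the control. The single lists of replicates 3 and 4 of WAPL-1 depletion had 15 of 29 and 12 of 28. Shares over all genes with a summit at the start are not given here, so these counts describe the members only.

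Every member with an SMC-3 summit in the control kept one in WAPL-1 depletion, 26 of 26, beside 84.9% of all 2661 genes with one in the control. Of the 28 members with SMC-3 in WAPL-1 depletion, 2 (7.14%) had none in the control, beside 28.9% of all 3176 genes. These were *gas-1* and *cox-7C*. At *gas-1*, on chromosome X, the WAPL-1 depletion peak spanned 15590231 to 15591026 in ce10 with its summit at -309 bp, and reached over the first bases of the gene. The nearest control summit was at -10300 bp. At *cox-7C*, on chromosome I, the peak spanned 9772391 to 9773069 with its summit at -481 bp, nearer to the start of the neighbouring gene F26E4.4.

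Single-library SMC-3 lists of WAPL-1 depletion, which went into the combined set, gave 29 members for replicate 3 and 28 for replicate 4, where all genes had 20.9% and 17.6% and highly expressed genes 39% and 34.3%. Both lists had the *gas-1* and *cox-7C* summits. Neither gene had an SMC-3 summit in any of the 4 HW04 libraries or in the control. RNA of the 2 genes in WAPL-1 depletion is given above, at -0.18 ± 0.59 for *gas-1* and -0.05 ± 0.58 for *cox-7C* in the authors' deposited table. The PQN-85 list of averaged WAPL-1 depletion libraries, from which all 6713 combined peaks were taken unchanged, gave 28 members, where all genes had 22.1% and highly expressed genes 45.9%.

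Of the 20 members with PQN-85 in SMC-3 depletion, 4 (20%) had none in the control, beside 19.6% of all genes with it. Of the 24 in WAPL-1 depletion, 6 (25%) had none in the control, beside 29.2% of all genes, so both shares were near the background or below it. By chromosome, of the 7 members on X, 5 had a PQN-85 summit in SMC-3 depletion, 7 in WAPL-1 depletion and 2 in the control. Of the 32 autosomal members the counts were 15, 17 and 17, beside 1841, 2226 and 1929 of all 15966 autosomal genes. Counts of highly expressed genes by chromosome are not given here. The X-linked genes with PQN-85 in both depletions but not in the control were *asb-2*, *asg-2*, *ucr-2.1* and *ucr-2.2*, and *gas-1* on X and the complex I gene *nuo-6* on an autosome had it in WAPL-1 depletion only. The SMC-3 set of the control did have summits at *asb-2*, *asg-2*, *ucr-2.1* and *ucr-2.2*. Over all 2641 genes on X, 285 had PQN-85 in SMC-3 depletion, 389 in WAPL-1 depletion and 295 in the control, so in SMC-3 depletion the difference at these 7 genes was not seen over the chromosome's genes as a whole. In HW04 worms 4 and 0 of the 7 X members had a PQN-85 summit in the libraries with auxin, and 6 in each of those without. Both depletions are set against this same control set, so these differences are not independent of each other. Whether its low count at these genes lies within the spread of single libraries was not tested.

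Several members have a paralog on another chromosome. The X-linked genes *gas-1*, *asb-2*, *ucr-2.1* and *ucr-2.2* each had summits in at least 1 combined set. Their paralogs on chromosome III, *nduf-2.2*, *asb-1* and *ucr-2.3*, had none within 500 bp in any of the 17 SMC-3 and PQN-85 lists. With 1000 bp, *nduf-2.2* and *ucr-2.3* do have an SMC-3 summit in the control, so the contrast depends on the window. Of all genes 77.6%, and of highly expressed genes 54.7%, had no summit within 500 bp in the 6 combined sets. The paralogs without summits also had fewer RNA reads: in the SMC-3 comparison of the authors' deposited table the mean normalized count was 343 for *nduf-2.2* against 4066 for *gas-1*. It was 739 for *asb-1* against 12086 for *asb-2*, and 370 for *ucr-2.3* against 6659 for *ucr-2.1* and 2438 for *ucr-2.2*, in the authors' deposited table. These are counts not divided by gene length, since exon lengths were not given, and they describe these genes only.

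**Figure D4:**
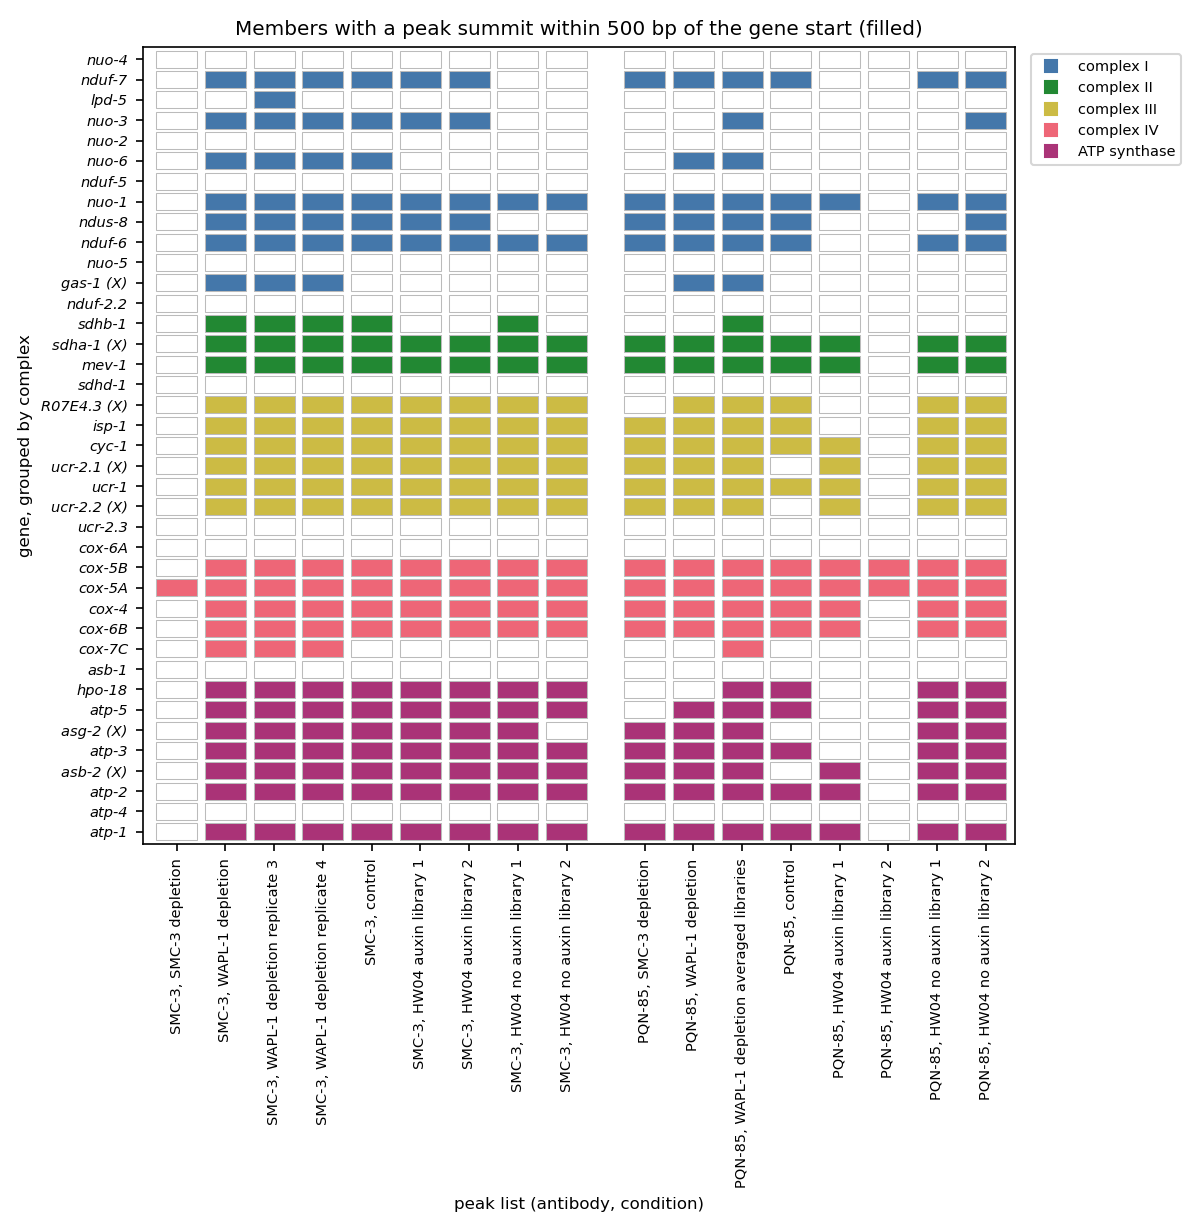
Members (y axis, grouped by complex, X-linked genes marked) with a summit within 500 bp of the start (filled square) in each of the 17 SMC-3 and PQN-85 peak lists (x axis). The SMC-3 depletion column is filled for *cox-5A* alone, *gas-1* and *cox-7C* are filled for SMC-3 in the WAPL-1 depletion lists only, and 10 genes have no filled square.

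Summits lay upstream of the members' starts. In SMC-3 depletion 20 of 20 PQN-85 summits were upstream, with a median distance of -200 bp. In WAPL-1 depletion 27 of 28 SMC-3 and 24 of 24 PQN-85 summits were upstream, with medians of -199.5 bp for SMC-3 and -204 bp for PQN-85. In the control 26 of 26 SMC-3 and 19 of 19 PQN-85 summits were upstream, with medians of -174.5 bp for SMC-3 and -156 bp for PQN-85. This position is common to bound genes in general: over all genes with an SMC-3 summit in the control 87.1% lay upstream or at the start, with a median distance of -163 bp. The gene nearest to a summit was not always the member. Of the 26 SMC-3 summits in the control, 20 had the member's start as the nearest, and the others were nearer to a neighbour, such as *jmjd-4* beside *mev-1*, *islo-1* beside *isp-1* and *lmtr-3* beside *atp-5*.

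**Figure D5:**
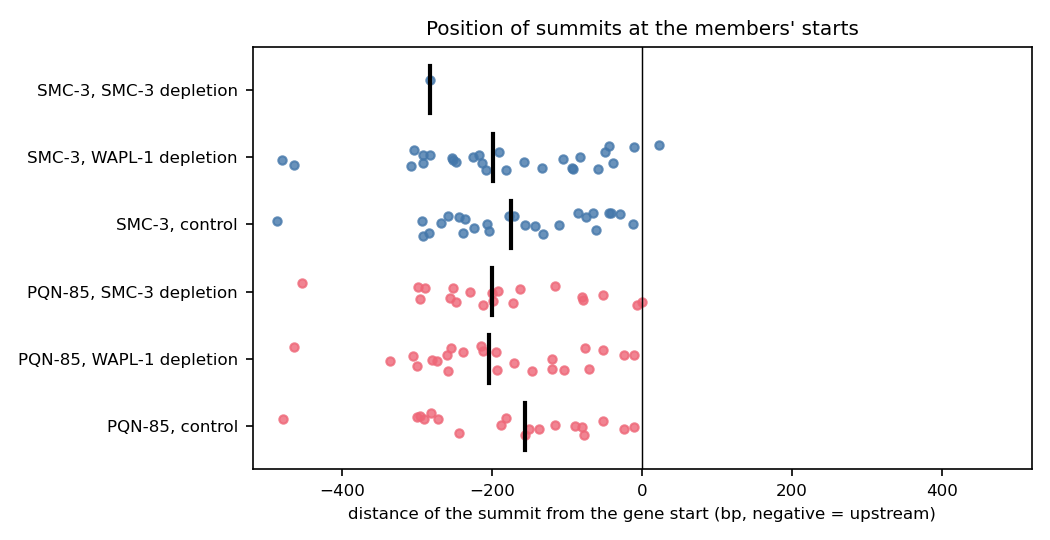
Distance in bp of each member's summit from its gene start (x axis, negative is upstream) in the 6 combined sets (y axis), 1 point per member with the median as a black bar. All points but 1, *atp-1* in the SMC-3 set of WAPL-1 depletion at 22 bp downstream, lie upstream of the start.

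The arrangement of neighbouring genes was also counted. For 13 members the start of a divergent gene lay within 500 bp, and 12 of these 13 had an SMC-3 summit in the control, against 14 of the other 26. Over all genes 42.4% of those with such a divergent start and 11.6% of the others had an SMC-3 summit in the control, and over highly expressed genes 68.7% and 27.3%, so the order is the same outside the members. For 8 members a gene on the same strand ended within 500 bp upstream or overlapped, an arrangement also found in worm operons. Of these 8, 5 had no summit in any combined set (*asb-1*, *atp-4*, *nuo-4*, *nuo-5* and *sdhd-1*), against 6 of the other 31. Over highly expressed genes 63.3% of those with a close upstream gene and 53.3% of the others had none, and over all genes 82.7% and 76.4%. Operon membership itself was not annotated in the files. In total 11 members had no summit in the 6 combined sets, the others being *cox-6A*, *lpd-5*, *nduf-2.2*, *nduf-5*, *nuo-2* and *ucr-2.3*. Some had a summit just outside the window in the control SMC-3 set, at -745 bp for *cox-6A*, -723 bp for *nduf-2.2*, 620 bp for *ucr-2.3*, 836 bp for *atp-4* and 962 bp for *nuo-2*.

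The RNA values can be set beside the presence of a summit. In SMC-3 depletion the 26 members with an SMC-3 summit in the control had a median log2 fold change of -0.34 and the 13 without one -0.41. For PQN-85 the medians were -0.34 for the 19 with a summit and -0.37 for the 20 without. In WAPL-1 depletion the medians were -0.13 with an SMC-3 summit in the control and -0.08 without. With a PQN-85 summit in the control the WAPL-1 depletion median was -0.11, and without one -0.12. These medians were not tested against each other. Over all highly expressed genes the SMC-3 depletion medians were -0.10 with an SMC-3 summit and -0.02 without. For the same genes the WAPL-1 depletion medians were -0.002 with an SMC-3 summit and 0.002 without.

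Strain HW04 gave peak lists of single libraries. By the labels, SMC-3 summits lay at 24 and 24 members with auxin and at 22 and 20 without it, a mean difference of 3 members, with p = 0.333 in a two-sided exact permutation test of 2 libraries against 2. That is the smallest p this design allows. Over all genes the shares were 14.6% and 17.2% with auxin, and 10.9% and 10.8% without. Over highly expressed genes they were 32.2% and 36.6% with auxin, and 24.8% and 23.4% without. The peak names in all 4 SMC-3 lists state the opposite auxin condition to the labels, both lists labelled as without auxin name 1 extract, and by those names the difference is -3. Summits were present in all 4 libraries at 20 members, and in none at 14. The same counts over all genes are not given here, so these describe the members only.

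PQN-85 summits lay at 14 and 2 members in the HW04 libraries with auxin and at 22 and 24 members in those without it. The mean difference was -15 members, with p = 0.333 in the two-sided exact permutation test, again the smallest possible. Without the second auxin library, the one with 2 members, the difference was -9. All genes showed the same order, with 7.8% and 1.71% with auxin and 12.3% and 22.5% without it, and so did highly expressed genes, with 19.1% and 4.67% with auxin and 28.5% and 45.9% without it. The lists differ in size as well, with 4070 and 1296 peaks with auxin and 6553 and 12367 without, and the part of list size in the members' counts was not tested. The genes *cox-5A* and *cox-5B* had a PQN-85 summit in all 4 libraries. They were the only members with one in the auxin library of 1296 peaks.

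The monomethylated form of histone H4 lysine 20, H4K20me1, is known in hermaphrodites for marking both X chromosomes through dosage compensation. Its lists come from HW04 only. Peaks covered all 7 X members in each of the 4 libraries, with at least 94.1% of the gene covered and a median of 100%. Over all genes on X, peaks touched 75.3% and 77% in the libraries with auxin and 76.2% and 77.1% in those without. Among highly expressed genes on X, peaks touched 92.7% and 93.3% in the libraries with auxin and 94.4% and 94.8% in those without. Of the 32 autosomal members, peaks touched 4 and 7 in the libraries with auxin and 5 and 3 in those without, beside 18.5%, 23.3%, 21.6% and 20.7% of highly expressed autosomal genes and 4.09%, 5.69%, 4.7% and 4.94% of all autosomal genes. Those touched in all 4 libraries were *atp-1*, *atp-2* and *cox-6A*. For *atp-2* the share covered was 98.6% and 100% with auxin and 100% and 95.9% without it.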

How the data were processed

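Whole-worm ChIP-seq and RNA-seq samples were grouped by strain and auxin from their labels. Per the file headers, each of the deposited RNA tables gives for every gene the authors' mean normalized count, their log2 fold change against CA1200, the SE of that change, their p-value and adjusted p-value, and a Wald score. For ChIP, the submitters' processing notes list MACS2 2.1.1, MACS3, deepTools 3.5.0, SAMtools 1.11 and Bowtie2 2.4.2. For RNA they list DESeq2 1.30.0, Cufflinks 2.2.1, HTSeq 0.13.5 and HISAT2 2.2.1. Counting by strand is not stated, so reads of genes that overlap on opposite strands cannot be told apart. How reads shared by overlapping genes on the same strand were assigned was not examined either. The deposited peak lists hold the authors' score, fold enrichment (a ratio over input), −log10 p and −log10 q of each peak.

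With no count per library the RNA fit was used as deposited. Called means an adjusted p under 0.05. Symbols came from RefSeq (assembly WBcel235), which matched all 39 members and 18230 of 18607 genes. Build ce10 is stated for the combined SMC-3 sets and no build for the PQN-85, HW04 or RNA files. As a check, summit positions relative to starts on both strands were compared towards the right end of each chromosome that held enough summits. The midpoints were shifted by at most 69.75 bp in the combined sets and 85 bp in the HW04 lists, both on chromosome IV. The combined SMC-3 set of SMC-3 depletion and the second PQN-85 auxin list of HW04 held too few summits for this check, and some other lists did on 1 or 2 chromosomes. Since GEO attaches both combined JK06 sets to other samples, they were assigned by the library names that their peak names hold. Python 3.11.15, pandas 2.3.3 and scipy 1.17.1 were used, and distances and adjusted p-values were tested on simulated data.

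The members and gene lists were chosen with earlier results of these data known. The rule for naming was as follows. Any called member is given with its SE. In each complex, up to 4 members with the smallest p and the one with the largest p in the SMC-3 comparison are given, and so are the paralog groups. From each other list, up to 3 genes with the smallest p may be named, and at starts the 5 top-scoring members per set and those bound in 1 condition. Other members are given by range and count. Alternatives were other p thresholds, adjustment sets, centring, windows, peak overlap, the higher-scoring peaks, other lists and leaving out a library. Hi-C, SMC-1, GFP, 8WG16 and input data were not used here. No sequence is shown, since none was in the files used.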

Additional observations from a re-analysis of the deposited data

How the results depend on the processing

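The counts of called members stayed at 0 in both comparisons with adjusted p thresholds of 0.01 and 0.1 and with adjustment over every gene or over genes whose mean normalized count reached 10. The members' median log2 fold change ranged from -0.36 to -0.29 in SMC-3 depletion and from -0.15 to -0.10 in WAPL-1 depletion over the centring, filter and weighting alternatives. Narrower and wider windows moved 2 counts at the starts by more than 1.5 times: SMC-3 in SMC-3 depletion was 1 at 500 bp, 0 at 250 bp and 2 at 1000 bp, and PQN-85 in WAPL-1 depletion was 24 at 500 bp and 15 at 250 bp. The other counts of the combined sets stayed within 1.5 times under every window, overlap, score and list alternative tried. The SMC-3 difference in HW04, 3 members by the labels, is -3 by the library names inside the peak names. Leaving out each HW04 library in turn gave 2 to 4 members for SMC-3 and -21 to -9 for PQN-85. With the replicate number as a block, the differences were 3 members for SMC-3 and -15 for PQN-85, as without it, and 2 pairs are too few to show whether the numbers pair the libraries. No paired analysis was possible because the RNA tables and combined peak sets hold no value per library, so no library could be left out of them either.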
